A study of Mus musculus with 6 samples.

Results

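The genes of the 5 NF-kB transcription factor subunits (Rela, Relb, Rel, Nfkb1 and Nfkb2) and of the 3 components of the IkB kinase complex (Chuk, Ikbkb and Ikbkg) were followed in RNA sequencing of mouse blood neutrophils. The 8 genes were chosen by name, and all 8 were found among the 47561 features listed. Neutrophils had been sorted by flow cytometry from peripheral blood of negative control mice (3 libraries) and of mice after 30 days of AVP (3 libraries). The labels do not expand AVP, and no source used here gives the strain, age, sex, dose or route. The labels do not say whether libraries of 1 group stem from different animals. The p-values therefore measure the spread between these libraries, which may be technical.

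NF-kB proteins act as dimers that share a Rel homology region, with which they pair and bind DNA. In resting cells IkB proteins hold most dimers in the cytoplasm. The IkB kinase complex marks the IkB protein for destruction after a signal such as interleukin-1, tumour necrosis factor or a Toll-like receptor ligand, and the freed dimers enter the nucleus. This control acts on proteins already made, so the level of a subunit's or kinase's messenger RNA is not a measure of NF-kB activity. In the canonical arm the kinase Ikbkb and the adaptor Ikbkg release dimers of Rela or Rel with the product of Nfkb1. In the non-canonical arm the kinase Chuk drives processing of the Nfkb2 precursor, which pairs with Relb.

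The unit is FPKM, the number of fragments per kilobase of a transcript relative to the depth of the library, so that levels of different genes can be set beside each other. Between 7688 and 8842 features reached 1 FPKM in a library, and the depth was estimated at 14199000 to 16845000 fragments per library from the value that 1 fragment contributes to short pseudogenes. All 15 neutrophil markers listed, among them S100a8, Csf3r and Ly6g, were above 0 in at least 1 library, and their summed level was 167400 to 196000 FPKM. Most of that sum was S100a8 (95287 to 121812 FPKM) and S100a9 (57428 to 68563 FPKM). Ltf was above 0 only in control replicate 1 (0.111 FPKM), and Camp was at 0 in control replicate 2 and AVP replicates 1 and 3. Transcripts of other blood cells were present as well. The 17 B cell markers summed to 7427 to 11490 FPKM in controls and to 2224 to 6031 FPKM after AVP, without overlap. Much of that sum came from Igkc (3355 to 6228 FPKM in controls, 653 to 3300 after AVP) and Iglc2 (1223 to 3164 and 408 to 728). Not all B cell markers fell: Cd79a overlapped (415 to 466 and 244 to 628 FPKM). Ighd was higher in every AVP library (92.4 to 185 FPKM) than in any control (55.2 to 79.9 FPKM). The 10 red cell markers summed to 102800 to 154900 FPKM in controls and to 119500 to 242700 FPKM after AVP, with overlap, and in AVP replicate 1 (242700 FPKM) they exceeded the neutrophil markers (167400 FPKM). In bulk samples fewer cells of a type and less RNA per cell cannot be told apart.

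Some of these genes are themselves regulated by NF-kB, and the stretches before their starts show where the factor's letters occur. The promoter table from RefSeq (GRCm38.p6) held 5 of the 8 genes, with 250 bases before and 50 bases after each start. The 10-base kB consensus motif, searched on both strands with overlapping matches merged, was found for Rel and Nfkb2. It was not found in the windows of Rela, Chuk and Ikbkg. Over all genes with a promoter 9.55% held the motif, and of the promoters counted singly 8.46%. The 250 bases before the start of Rel (chr11:23770970-23771219, minus strand) are shown first, with the motif in capitals, because Rel was the single gene of the 8 whose groups did not overlap.
Rel: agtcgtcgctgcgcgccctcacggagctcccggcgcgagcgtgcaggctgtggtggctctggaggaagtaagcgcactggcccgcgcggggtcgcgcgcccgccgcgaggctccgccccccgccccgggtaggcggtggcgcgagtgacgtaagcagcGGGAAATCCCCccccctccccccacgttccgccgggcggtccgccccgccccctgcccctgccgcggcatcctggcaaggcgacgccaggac
Nfkb2 has several annotated starts, and the 30 bases around each of 3 of its 4 motifs lie at chr19:46304689-46304718, chr19:46304716-46304745 and chr19:46305695-46305724 on the plus strand. The same motif before Nfkbia (chr12:55492657-55492686, minus strand), the gene of the main IkB protein, is given for comparison.
Nfkb2 first: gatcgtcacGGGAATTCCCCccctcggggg
Nfkb2 second: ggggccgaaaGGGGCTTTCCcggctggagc
Nfkb2 last: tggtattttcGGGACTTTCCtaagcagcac
Nfkbia: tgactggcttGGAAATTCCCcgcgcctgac
These are matches of letters and not measured binding sites.

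Neither the subunit genes nor the kinase genes passed the test between AVP and control. Rel, which encodes c-Rel, was higher in all 3 AVP libraries than in any control library, while the other 7 overlapped between the groups. By limma, 0 of the 8 had an adjusted p under 0.05, where 0% of the 8523 genes tested were called. At an unadjusted p under 0.05 the count was again 0 of 8, against 8.47% of all genes tested. Groups did not overlap in 1 of the 8, against 14% of all genes tested (6.39% with AVP higher and 7.63% with AVP lower), a share near the background. The fitted log2 fold changes, AVP minus control on the log2(FPKM + 1) scale, ran from -1.25 (Rela) to 0.90 (Relb).

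The order of mean levels over the 6 libraries was Chuk (20.2 FPKM), Rela (17), Ikbkb (12.8), Nfkb1 (9.95), Rel (7.39), Relb (5.9), Nfkb2 (4.64) and Ikbkg (1.97 FPKM). Neighbours in this order overlapped throughout when all 6 libraries were taken. Within the controls the single neighbouring pair that did not overlap was Nfkb1 (7.8 to 15.4 FPKM) above Rel (3.81 to 6.45 FPKM). After AVP every neighbouring pair overlapped, and Rel stood above Nfkb1 in the order of the means. Chuk was the highest of the 8 in 3 libraries (control replicates 1 and 2 and AVP replicate 1), Rela in control replicate 3 and AVP replicate 2, and Ikbkb in AVP replicate 3.

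**Figure D1:**
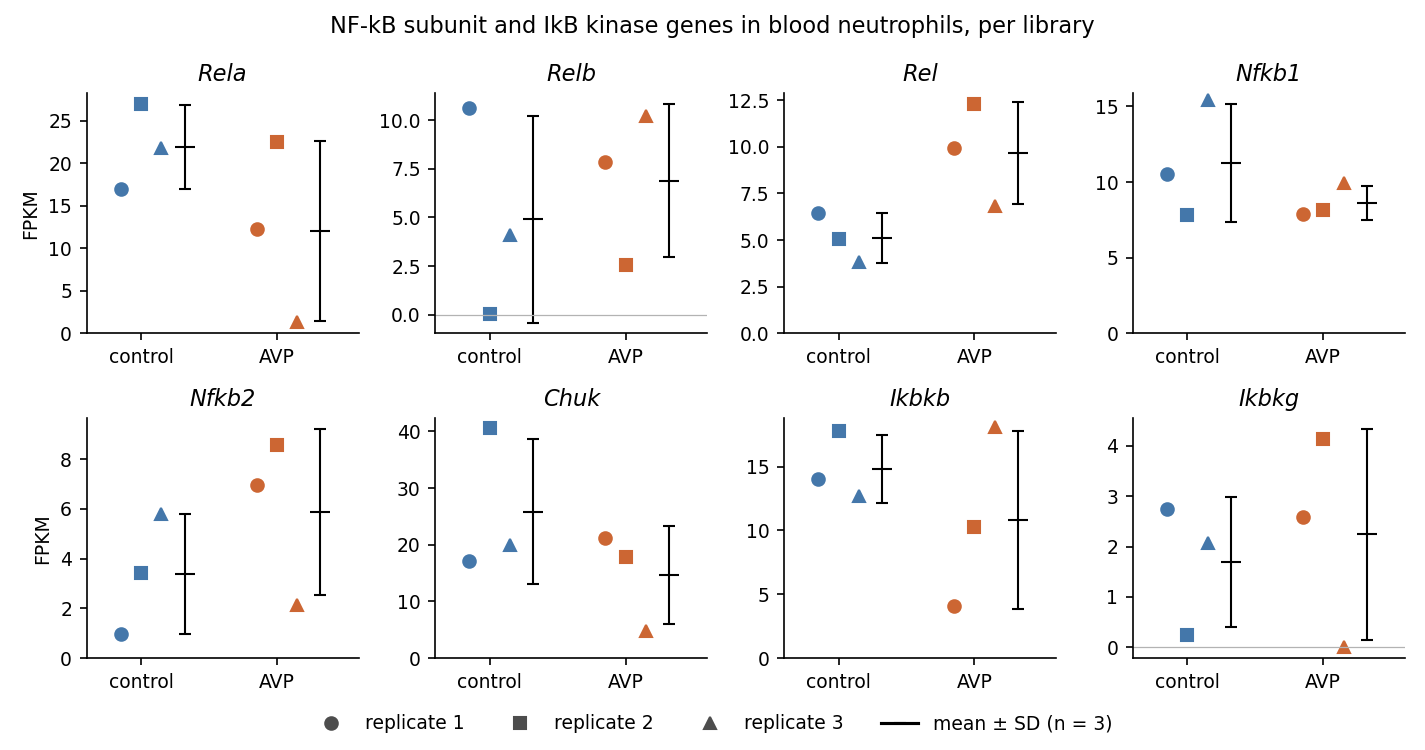
Level in FPKM of each subunit and kinase complex gene (panels, vertical axes of their own starting at or just below 0) in control and AVP libraries; symbols stand for replicates and bars for mean ± SD (n = 3). Rel in AVP libraries (6.8 to 12.3 FPKM) lies above the controls (3.81 to 6.45 FPKM), and the groups overlap in the other panels.

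Of the 3 subunits that carry a transactivation domain, Rel was the steadiest within groups. Rel (gene identifier 19696, chromosome 11 from 23736847 to 23770969 in GRCm38) is the subunit best known from lymphoid and myeloid cells. Its level was 6.45, 5.08 and 3.81 FPKM in control replicates 1 to 3 and 9.95, 12.3 and 6.8 FPKM in AVP replicates 1 to 3. The lowest AVP library thus lay just above the highest control. The means were 5.11 ± 1.32 and 9.68 ± 2.75 FPKM (SD, n = 3). The fitted difference on the log2 scale was 0.86 (SE 0.54, 95% interval -0.37 to 2.1, adjusted p = 0.744 by limma). The exact two-sided permutation test gave p = 0.1, below which a design of 3 against 3 cannot go.

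Rela, the gene of the p65 subunit that carries most canonical transcription (gene identifier 19697, chromosome 19 from 5637442 to 5648134), read 17, 26.9 and 21.8 FPKM in control replicates 1 to 3 against 12.3, 22.5 and 1.31 FPKM in AVP replicates 1 to 3. AVP replicate 3 stood far below the other 5 libraries, and AVP replicate 2 lay within the control range. The fitted log2 fold change was -1.25 (SE 0.83, 95% interval -3.16 to 0.65, adjusted p = 0.768 by limma). Without AVP replicate 3 it was -0.26. The low value corresponds to an estimated 60 fragments, against up to 1106 in another library.

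Relb, the partner of the processed Nfkb2 product (gene identifier 19698, chromosome 7 from 19606217 to 19629438), read 10.6, 0.0604 and 4.1 FPKM in control replicates 1 to 3 against 7.87, 2.57 and 10.2 FPKM in AVP replicates 1 to 3. Control replicate 2 was close to 0, with an estimated 2 fragments, and control replicate 1 was the highest of all 6. The log2 fold change of 0.90 (SE 0.97) had an adjusted p of 0.851 by limma and turned to -0.03 without control replicate 2.

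The 2 precursor genes differed in their spread over the libraries. Nfkb1 (gene identifier 18033, chromosome 3 from 135584655 to 135691969) encodes p105, which is cut to the p50 subunit, a DNA-binding partner without a transactivation domain. It read 10.5, 7.8 and 15.4 FPKM in control replicates 1 to 3 against 7.86, 8.13 and 9.92 FPKM in AVP replicates 1 to 3. The AVP libraries all fell inside the control range, and the highest library was 1.98 times the lowest, the narrowest range of the 7 genes that were above 0 in every library. The log2 fold change was -0.23 (SE 0.49, 95% interval -1.35 to 0.89, adjusted p = 0.927 by limma). It was 0 without control replicate 3, the highest of the 6 libraries for this gene.

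Nfkb2 (gene identifier 18034, chromosome 19 from 46300994 to 46312400) encodes p100, the precursor of p52. It read 0.974, 3.41 and 5.79 FPKM in control replicates 1 to 3 against 6.96, 8.56 and 2.13 FPKM in AVP replicates 1 to 3. AVP replicates 1 and 2 lay above all controls and AVP replicate 3 below 2 of them. The log2 fold change was 0.73 (SE 0.75, 95% interval -1 to 2.46, adjusted p = 0.84 by limma). It was 1.24 without AVP replicate 3 and 0.24 without control replicate 1. Exons of Nfkb2 overlap those of Psd on the opposite strand by up to 299 bases, and Psd was at 0 to 1.34 FPKM. They also overlap those of AC114539.1 on that strand by up to 501 bases, a gene with no value analysed here, so the level of Nfkb2 is uncertain. Whether counting used strand is given in no source used here.

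In the kinase complex, Chuk and Ikbkb overlapped between the groups with lower means after AVP. Chuk (gene identifier 12675, chromosome 19 from 44073334 to 44107505) encodes IKK alpha, the kinase of the non-canonical arm. It read 17.1, 40.5 and 19.9 FPKM in control replicates 1 to 3 against 21.1, 17.9 and 4.83 FPKM in AVP replicates 1 to 3. Control replicate 2 was the highest library and AVP replicate 3 the lowest, with the other 4 between 17.1 and 21.1 FPKM. The log2 fold change was -0.82 (SE 0.64, 95% interval -2.28 to 0.65, adjusted p = 0.79 by limma), and it was -0.20 without AVP replicate 3 and -0.44 without control replicate 2.

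Ikbkb (gene identifier 16150, chromosome 8 from 22659205 to 22706589) encodes IKK beta, the main kinase of the canonical IkB proteins. It read 14.1, 17.8 and 12.7 FPKM in control replicates 1 to 3 against 4.12, 10.3 and 18.1 FPKM in AVP replicates 1 to 3. The AVP libraries spanned more than the controls, from below them to just above them. The log2 fold change was -0.53 (SE 0.56, 95% interval -1.83 to 0.76, adjusted p = 0.848 by limma), and it was -0.08 without AVP replicate 1 and -0.97 without AVP replicate 3.

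Ikbkg (gene identifier 16151, chromosome X from 74393233 to 74456792) encodes NEMO, the regulatory subunit that links the kinases to upstream ubiquitin chains, and was the least abundant of the 8. It read 2.75, 0.251 and 2.07 FPKM in control replicates 1 to 3 against 2.58, 4.14 and 0 FPKM in AVP replicates 1 to 3, with 1 low library in each group. The log2 fold change of 0.17 (SE 0.79) had an adjusted p of 0.962 by limma, and its sign turned when control replicate 2 (-0.30), AVP replicate 1 (-0.10) or AVP replicate 2 (-0.27) was left out. Exons of Ikbkg and of G6pdx on the opposite strand share up to 278 bases, and G6pdx was at 17.6 to 38.4 FPKM, so the level of Ikbkg is uncertain.

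**Figure D2:**
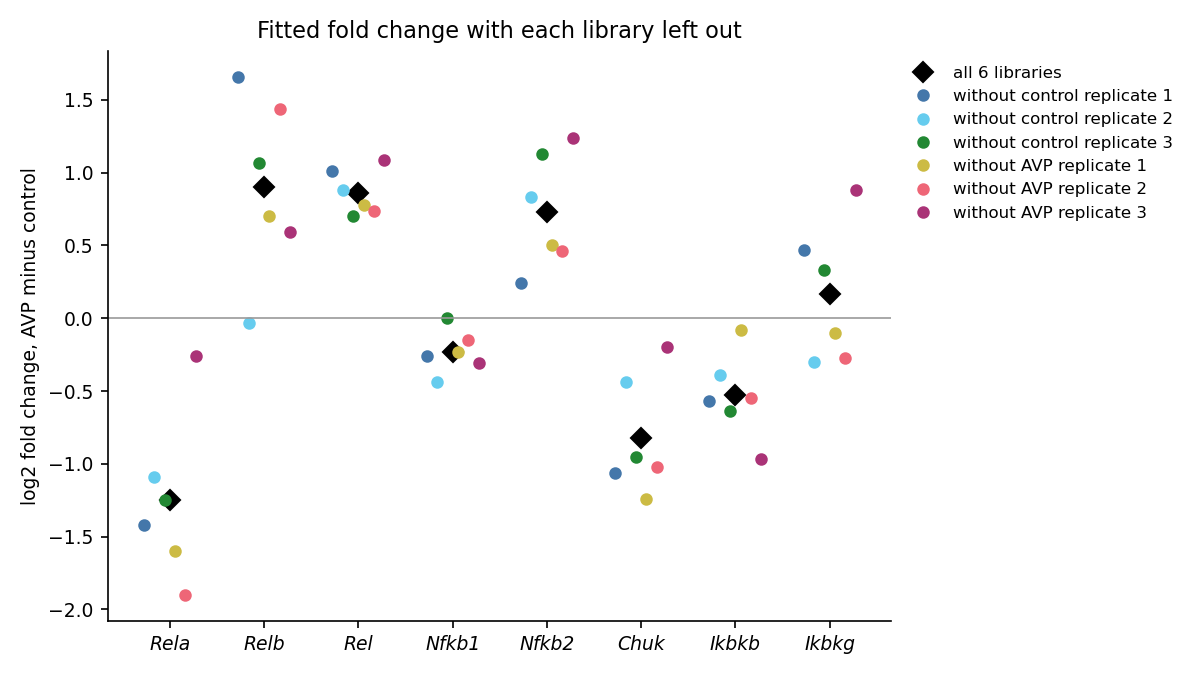
Fitted log2 fold change of each subunit and kinase complex gene (vertical axis, AVP minus control) with all 6 libraries (diamonds) and with each library left out (coloured points). The points of Rel lie between 0.70 and 1.09, while those of Relb and Ikbkg lie on both sides of 0 and Rela moves from -1.25 to -0.26 without AVP replicate 3.

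Rel's place among the subunits was followed through its share of their summed FPKM, which does not depend on how libraries are scaled. The 5 subunit genes summed to 45.5, 43.2 and 51 FPKM in controls and to 44.9, 54.1 and 30.4 FPKM after AVP, with overlap. Rel made up 14.2%, 11.7% and 7.48% of that sum in controls and 22.1%, 22.7% and 22.4% after AVP, without overlap. The share in AVP replicate 3 rested on the lowest sum (30.4 FPKM), with Rela at 1.31 FPKM. Rel itself read 6.8 FPKM there, against 6.45 FPKM in control replicate 1. Rela made up 37.3%, 62.2% and 42.8% in controls and 27.4%, 41.6% and 4.32% after AVP, with overlap. The ratio of Rel to Rela was 0.379, 0.189 and 0.175 in controls and 0.81, 0.545 and 5.19 after AVP, without overlap, the last value coming from the library in which Rela was lowest. These shares and ratios are a description of the chosen genes, and no test was made on them.

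The kinase complex genes summed to 33.9, 58.6 and 34.6 FPKM in controls and to 27.8, 32.3 and 22.9 FPKM after AVP. All 3 AVP libraries lay below all controls, by 1.59 FPKM at the nearest point. Each of the 3 genes alone overlapped between the groups, and Chuk ran from 4.83 FPKM in AVP replicate 3 to 40.5 FPKM in control replicate 2. Of all single genes tested, 7.63% did not overlap with AVP lower. After the scaling used in the fit, a comparison added after seeing the data, the lowest control was at 32.6 FPKM and the highest AVP library at 31.2 FPKM, a gap of 1.48 FPKM, and no test was made on the sum. The ratio of Chuk to Ikbkb was 1.22, 2.27 and 1.57 in controls and 5.12, 1.74 and 0.267 after AVP. It was above 1 in all libraries except AVP replicate 3. Ratios of the non-canonical to the canonical subunits overlapped between the groups, both for Nfkb2 over Nfkb1 (0.0925 to 0.437 in controls, 0.214 to 1.05 after AVP) and for Relb over Rela (0.00225 to 0.624 in controls, 0.114 to 7.79 after AVP).

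**Figure D3:**
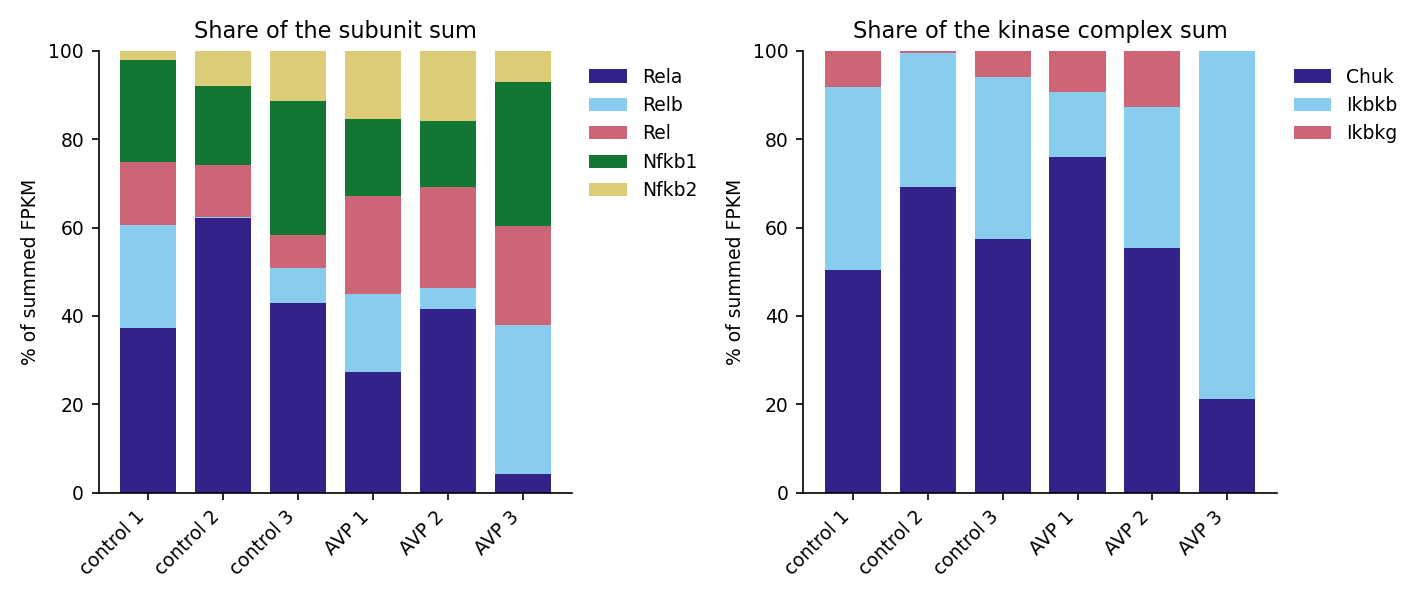
Percent of the summed FPKM taken by each of the 5 subunit genes (left) and each of the 3 kinase complex genes (right) in every library. Rel takes 22.1% to 22.7% in the AVP libraries and 7.48% to 14.2% in the controls, and in AVP replicate 3 Rela shrinks to 4.32% and Ikbkb grows to 78.9% of its sum. The Rel share of AVP replicate 3 rests on the lowest subunit sum (30.4 FPKM).

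The genes of the IkB proteins were set beside the 8 genes. The mean levels of Nfkbia (658 FPKM), Nfkbiz (151 FPKM) and Nfkbid (67.5 FPKM) were above those of the 8 genes (1.97 to 20.2 FPKM). They are therefore no reference for the change that could be seen at the level of the 8 genes. Bcl3 (13.6 FPKM), Nfkbie (8.05 FPKM) and Nfkbib (1.89 FPKM) had lower means. Nfkbia, which encodes the inhibitor IkB alpha, read 140, 153 and 382 FPKM in control replicates 1 to 3 against 1018, 1074 and 1182 FPKM in AVP replicates 1 to 3, and its fitted log2 difference was 2.51 (SE 0.37, adjusted p = 0.0897 by limma). Its level was 3.08, 3.54 and 7.49 times the summed subunits in controls and 22.6, 19.9 and 38.9 times after AVP. The atypical nuclear IkB genes Nfkbid (2.51, SE 0.32, adjusted p = 0.0659) and Nfkbiz (1.94, SE 0.34, adjusted p = 0.12) likewise lay higher in every AVP library than in every control. Bcl3, a nuclear IkB protein that binds p50 and p52, overlapped, with a log2 difference of 1.65 (SE 0.81, adjusted p = 0.652), which was 0.79 without control replicate 3 and 2.28 without control replicate 1. The cytoplasmic inhibitors Nfkbib (1.33, SE 0.81, adjusted p = 0.738) and Nfkbie (-0.10, SE 0.86, adjusted p = 0.978) overlapped too. The value of Nfkbib was 2.20 without AVP replicate 1, 2.54 with a pseudocount of 0.1 and 0.56 with a pseudocount of 5. Nfkbil1 was at 5.17 FPKM in control replicate 1 and at 0 in each of the others, and was not tested. The median of the 6 tested was 1.79, against -0.04 over all genes tested. Adjusted p-values of the IkB protein genes moved both ways with the processing. When 3 libraries had to reach 10 FPKM, limma gave 0.0407 for Nfkbia and 0.0328 for Nfkbid. Without control replicate 3 it gave 0.00632 for Nfkbia and 0.112 for Nfkbid. With no filter limma gave 0.609 for Nfkbia and 0.307 for Nfkbid. Without AVP replicate 1 it gave 0.371 for Nfkbia and 0.364 for Nfkbid.

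**Figure D4:**
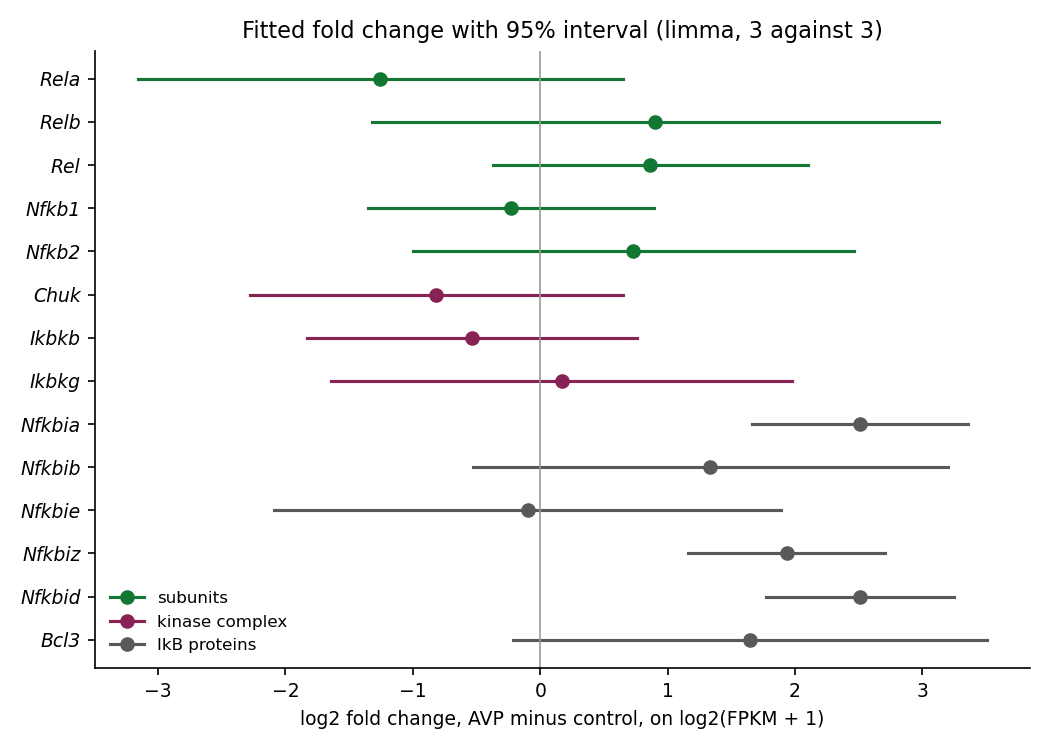
Fitted log2 fold change (points) with its 95% interval (lines) for the subunit genes, the kinase complex genes and the IkB protein genes. The intervals of the subunits and kinases all include 0, while those of Nfkbia (1.66 to 3.36), Nfkbiz (1.16 to 2.71) and Nfkbid (1.77 to 3.25) do not.

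Genes around the kinase complex were described by role, from lists written with earlier results of these data known. By limma 0 genes in each list had an adjusted p under 0.05 with the settings used throughout. The list of canonical activators held 18 tested genes, the adaptors and kinases between receptor and IkB kinase. Among them was Irak3, which restrains that signal (-1.71, SE 0.74). Of the 18, 0 had an unadjusted p under 0.05 in either direction. Among all genes tested, 4.69% did with AVP higher and 3.78% with AVP lower. The median log2 fold change of the 18 was -0.13 (-0.37 without AVP replicate 1), against -0.04 over all genes tested. Above 0 were 3 of the 18, against 4064 of all 8523 genes tested. Groups did not overlap in 1 of the 18 with AVP higher and in 3 with AVP lower (6.39% and 7.63% of all genes tested). The most abundant were Myd88, the adaptor of Toll-like and interleukin-1 receptors (-0.10, SE 0.30), and Bcl10, which joins receptor-proximal kinases to the complex (-0.07, SE 0.41). Of 9 genes of the non-canonical arm 1 had such a p, Tnfrsf1b, a receptor of tumour necrosis factor, at 14.5, 18 and 12.7 FPKM in controls and 30.9, 29 and 23.7 FPKM after AVP (0.93, SE 0.38, adjusted p = 0.558). Of 8 IKK-related kinases and partners 2 had such a p, the chaperone genes Hsp90ab1 (1.38, SE 0.35, adjusted p = 0.291) and Hsp90aa1 (0.82, SE 0.31, adjusted p = 0.504), whose products keep the kinases folded among many other clients. Over the 16 alternatives of processing and of libraries left out, Hsp90ab1 kept an unadjusted p under 0.05 in 16, Hsp90aa1 in 11 and Tnfrsf1b in 10. With 1 library left out, Hsp90aa1 kept it only without control replicate 3 or AVP replicate 2, and Tnfrsf1b only without control replicate 2 or AVP replicate 3. Hsp90aa1 also lost it without the intensity trend, and Tnfrsf1b on the deposited scale and with the replicate block.

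The 5 tested genes of IkB degradation (median -0.12, and 0.09 without control replicate 2) and the 13 cofactors and modifiers of Rel proteins (median 0.15, and -0.03 without AVP replicate 3) held 0 genes at an unadjusted p under 0.05. The most abundant of the first were Skp1 (-0.48, SE 0.48) and Rbx1 (-0.23, SE 0.33), subunits of the ubiquitin ligase that takes up marked IkB proteins. Skp1 was at -0.07 without control replicate 1 and at -0.84 without control replicate 2, and Rbx1 at -0.49 and 0 without the same libraries. The most abundant of the second was Rps3 (-0.15, SE 0.24), a ribosomal protein that also joins Rela complexes. Of 17 negative regulators 1 had such a p, Tnfaip3, which encodes the ubiquitin editor A20, at 1.37, 7.19 and 4.07 FPKM in controls and 55.3, 40.1 and 45.4 FPKM after AVP (3.43, SE 0.56, adjusted p = 0.11), and the median was -0.11 (-0.42 without control replicate 3 and 0.02 without AVP replicate 3). Of 40 tested NF-kB target genes 17 had an unadjusted p under 0.05 with AVP higher and 0 with AVP lower, with a median of 0.84. Among all genes tested, 4.69% had such a p with AVP higher and 3.78% with AVP lower. Nfkbia, Nfkbid, Nfkbiz and Tnfaip3, already described, were among the 17, so these are not separate results. Bcl3 and Nfkbie were also in both lists. The 4 target genes with the smallest p were Cxcl3, Nfkbid, Cxcl2 and Ier3. Of these, Cxcl2 and Ier3 had an adjusted p of 0.0328 by limma when 3 libraries had to reach 10 FPKM. Cxcl2 had 0.0475 with a pseudocount of 5 and 0.00599 without control replicate 3, and Cxcl3 had 0.0483 without the intensity trend. In other settings the values rose. With no filter limma gave 0.609 for Cxcl2 and 0.307 for Ier3 and Cxcl3. Without AVP replicate 1 it gave 0.364 for Cxcl2 and Ier3. Of 40 target genes with a promoter entry, not the same set as the 40 tested, 19 (47.5%) held the kB motif. So did 4 of 6 IkB protein genes and 2 of 5 of the subunit and kinase genes, against 9.55% of all genes with a promoter. Genes listed as targets may be known through such motifs, so these shares are a description only.

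**Figure D5:**
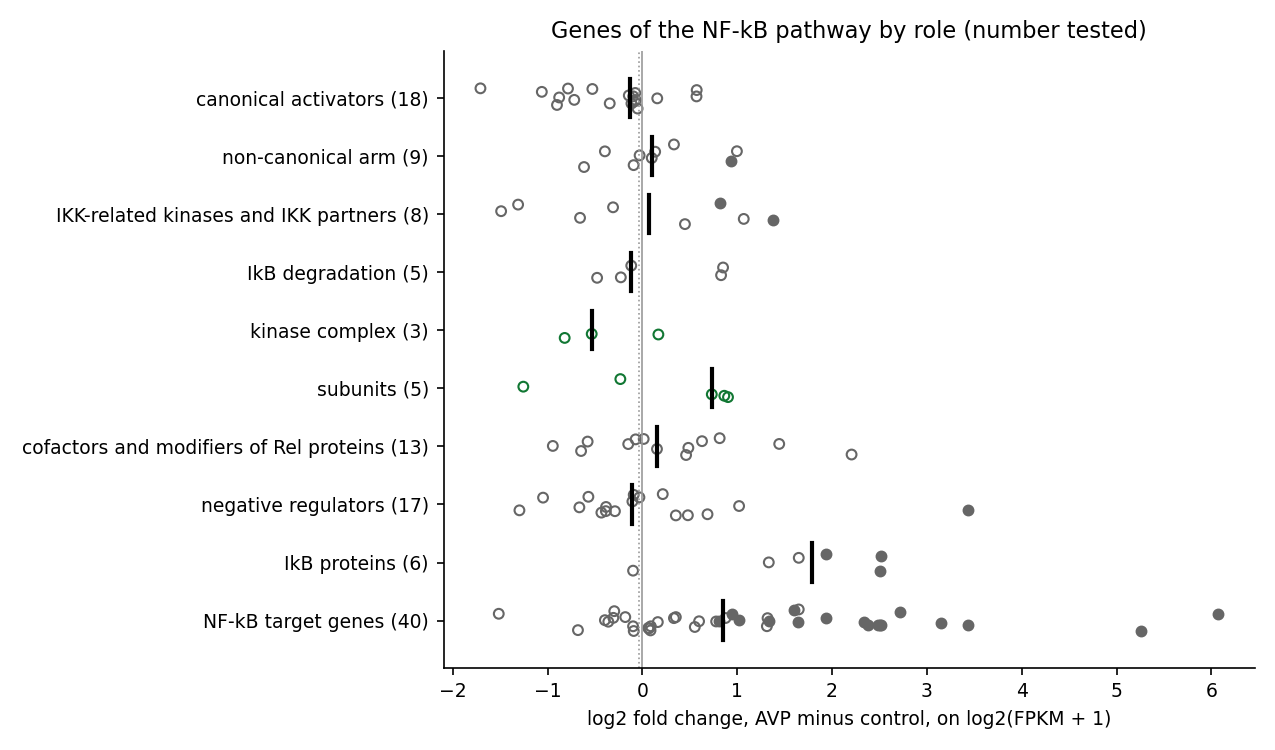
Fitted log2 fold change of each tested gene by role in the pathway (open circles, unadjusted p of 0.05 or more; filled, under 0.05; black bars, medians; dotted line, median of all genes tested). The 17 filled target genes lie to the right of 0, and the subunit and kinase complex genes (green) are all open.

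The within-group SD of the 8 genes on the log2 scale had a median of 0.89, against 0.91 for the 5243 tested genes with a mean level in their range (1.97 to 20.2 FPKM). Nfkb1 (0.33) and Rel (0.35) were the tightest, and Relb (1.39) and Rela (1.26) the widest. AVP replicate 3, which was lowest for Rela, Chuk and Ikbkg, also held the highest T cell marker sum (126 FPKM, against 0.701 to 14.3 FPKM in the other 5) and NK cell marker sum (59.6 FPKM, against 3.18 to 4.64 FPKM). It had the lowest monocyte marker sum (1030 FPKM, against 2639 to 6430 FPKM). Of the 14 T cell markers 9 were above 0 somewhere, while Cd3e, Cd4, Cd8a, Cd8b1 and Bcl11b were at 0 in every library. Of the 8 NK cell markers Eomes was listed at 0 in all 6. The NK cell sum of AVP replicate 3 was mostly Nkg7 (44.3 FPKM) and Gzmb (11.5 FPKM). Klrb1c (1.51 FPKM) and Klrd1 (1.11 FPKM) were also highest there. Ncr1 (0.274 FPKM) and Gzma (0.972 FPKM) were lowest in that library and Prf1 was at 0, so the sum does not show NK cells. The basophil marker sum was 337.8 FPKM in AVP replicate 1, where Ikbkb was lowest, and 0 to 31.1 FPKM elsewhere. Most of it was Mcpt8 (230 FPKM), and Prss34, Cpa3, Ms4a2 and Cyp11a1 were also highest there. The other markers listed were higher in control replicate 2 than in AVP replicate 1. These were Fcer1a (9.07 against 0 FPKM), Il4 (14 against 11.6 FPKM) and Gata2 (1.76 against 0.757 FPKM). The part of these other cell types, B cells and red cells included, in the levels of the 8 genes was not tested.

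Genes with a pattern over the 6 libraries most like that of Rel and of Rela, the 2 genes of the 8 with the smallest p, were sought among 4538 tested genes with a mean of at least 5 FPKM. For Rel they were Tuba1a (Pearson's r = 0.977), Exosc4 (0.975) and Tpi1 (0.966), which encode a tubulin, an exosome component and a glycolytic enzyme. Tuba1a read 68, 63.9 and 43.9 FPKM in control replicates 1 to 3 against 108, 110 and 68.8 FPKM in AVP replicates 1 to 3. For Rela they were Evl (0.994), Ighj1 (0.989) and Odr4 (0.989), each at 0 or 0.149 FPKM in AVP replicate 3. With 6 libraries and this many candidates, the values of r are given as a description only.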

How the data were processed

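Total RNA of sorted neutrophils was made into TruSeq libraries and sequenced as read pairs on a NovaSeq, per the labels' protocols. The submitters' processing notes name bcl2fastq 2.19, cutadapt 1.16.5, HISAT2 2.1, featureCounts 1.6.4, DESeq2 2.11.40.6 and mm10, without roles. The deposited values were taken as FPKM, inferred from the values since the files name no unit. Identifiers and coordinates came from RefSeq (GRCm38.p6), matched by symbol (44705 of 47561 features). Fragment numbers are estimates from FPKM, the longest coding transcript of GENCODE M21 and the estimated depth. An exact 0 can be a failed estimate.

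The filter kept 8523 genes that reached 1 FPKM in 3 or more libraries. Scaling used trimmed mean log ratios (30% of ratios and 5% of levels trimmed per end), and genes were tested on log2(FPKM + 1) with limma 3.58.1 in R 4.3.3, with an intensity trend and Benjamini-Hochberg adjustment over all of them, at 0.05. Fold changes are on that scale, which understates low genes. Printed FPKM are before scaling. The procedure was tested on simulated data. The genes and lists were chosen with earlier results of these data known. Named from each list were genes at an unadjusted p under 0.05 (up to 4), or else the 2 with the highest mean. Python 3.11.15 was used for the remaining steps.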

Additional observations from a re-analysis of the deposited data

How the results depend on the processing

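Under 16 alternatives (scaling, filter, pseudocount, moderation, a replicate block and leaving out each library), 0 of the 8 genes had an adjusted or unadjusted p under 0.05. Rel, Nfkb2, Rela, Chuk and Ikbkb kept the sign of their fold change in each alternative in which they were tested. Rel ranged from 0.58 (pseudocount 5) to 1.09. When 3 libraries had to reach 10 FPKM, Rel, Relb, Nfkb1, Nfkb2 and Ikbkg were not tested. Leaving out single libraries, the fold change of Relb ranged from -0.03 to 1.66, that of Ikbkg from -0.30 to 0.88 (and -0.24 with a pseudocount of 0.1), and that of Nfkb1 from -0.44 to 0. Nfkbie ranged from -1 to 0.66 and was 0.03 with a pseudocount of 0.1, Myd88 ranged from -0.27 to 0.07, Bcl10 from -0.40 to 0.21 and Rps3 from -0.32 to 0.03. Over all genes, 11 were called higher with the 10 FPKM filter, where 3675 genes were tested, 3 with a pseudocount of 5 and 1 without the intensity trend. From 0 to 4 were called higher with a library left out, the 4 without control replicate 3. At an adjusted p under 0.1, 12 were higher and 1 lower. With the 10 FPKM filter an unadjusted p under 0.05 was reached by 230 higher and 150 lower genes, among fewer genes tested.

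Libraries with the same replicate number showed no shared shift: their deviations from the group means correlated at 0.02, -0.01 and -0.04 over 8523 genes. With 3 libraries per group these values cannot decide whether the numbers of the labels pair the libraries. With the replicate number as a block, an unadjusted p under 0.05 was reached by 355 higher and 317 lower genes, against 400 and 322 without it, 0 genes were called by limma after adjustment, and Rel stood at 0.86. It changed no call among the 8 genes. With the 10 FPKM filter the list medians were 0.31 (negative regulators), -0.41 (cofactors) and 1.30 (targets), over fewer genes. The fewest estimated fragments stood behind Ikbkg in AVP replicate 3 (0) and Relb in control replicate 2 (2), in libraries that were not the shallowest.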

Other observations

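Single libraries far below the rest were common at the level of these genes. The threshold used here was chosen after seeing the data. Among 5243 tested genes with a mean of 1.97 to 20.2 FPKM, 1603 (30.6%) had 1 library more than 3 times below the next lowest, and the same held for 4 of the 8 genes, Rela, Relb, Chuk and Ikbkg. The low library was AVP replicate 1 in 417 genes and AVP replicate 3 in 386, and between 128 and 267 in each of the other 4. For Rela the next lowest library was 9.37 times AVP replicate 3, and for Relb it was 42.5 times control replicate 2.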
